A study of Mus musculus with 6 samples.

Results

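The regions described here carry H3K9me3 signal near mouse genes of liver-type detoxification and of the serpin family. H3K9me3, trimethylated lysine 9 of histone H3, is a mark of silenced chromatin. A region belonged to the set when it lay on an autosome and the deposited annotation gave it a gene whose name starts with Cyp2, Cyp3, Cyp4, Ugt1, Ugt2, Ugt3, Sult, Serpina or Serpinb. This rule found 288 of the 58511 regions, assigned to 111 genes, and used no measured signal. By starting letters there were 108 Cyp2, 54 Cyp3, 30 Cyp4, 25 Serpina, 22 Serpinb, 21 Sult, 16 Ugt2, 7 Ugt3 and 5 Ugt1 regions. The letters also took in 21 regions of Cyp20a1, Cyp21a, Cyp26, Cyp27a1, Cyp39a1 and Cyp46a1, which belong to other P450 families and are not typical genes of drug metabolism. Most clade B serpins are likewise not liver genes.

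The mark was mapped by CUT&Tag, in which an antibody brings a transposase to marked chromatin. The cells were endothelial progenitor cells (EPCs) from the bone marrow of C57BL/6J mice, depleted of lineage-positive cells, sorted magnetically for Sca-1 and CD31 and cultured in EGM-2 medium. M-EPC came from male mice, F-EPC from female mice and OVX-EPC from female mice ovariectomized at about 35 days of age. All mice were 8 weeks old, and no other treatment or allele is named. Each group had 2 libraries, and the labels do not say whether these came from separate animals, so p-values measure only the spread between libraries. Both F-EPC libraries held no reads in a late part of the genome, so F-EPC was used only on chromosomes 1 and 10 to 15 and the first part of chromosome 16, which hold 79 of the 288 members. The M-EPC and OVX-EPC libraries held 501237 to 573821 reads in all regions, and the 6 libraries held 200296 to 288353 in the stretch used for F-EPC. Chromosome X took 1.20% and 1.20% of region reads in M-EPC, against 2.40% and 2.43% in OVX-EPC. Chromosome Y shares overlapped between these groups: M-EPC libraries had 0.1329% and 0.1168%, OVX-EPC libraries 0.1158% and 0.1268%. Reads on chromosome Y thus did not separate male from ovariectomized female cells, and the reason was not tested. The cell type could not be checked against marker genes, because the mark does not report expression.

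Cytochrome P450 enzymes of these families oxidize drugs, steroids and fatty acids, and UDP-glucuronosyltransferases (Ugt) and sulfotransferases (Sult) then attach a sugar acid or a sulfonate group that makes the product soluble. Serpins inhibit proteases: many clade A members are secreted by the liver into plasma, and most clade B members act inside cells. In the mouse many of these genes stand in tandem arrays that grew by repeated duplication, so neighbouring genes and the sequence between them are often close copies.

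The copies bear on the measurement because reads were 25 bases long, sequenced from both ends of a fragment, and reads of mapping quality under 10 had been removed. In the median member, 68.6% of the 25-base words occurred once in the genome, against 93.1% over all regions. When the members were aligned with each other (blastn), 98 of them (34.03%) matched another member over at least 200 bases, and 13 of the 157 matching pairs were at least 90% identical. Of the closest pairs, 11 lay within 1 cluster, whereas 123 of all pairs joined different families and involved 79 members. Pairs between families are not copies within 1 tandem array, and their source was not tested. Repeat-masked sequence made up 36.4% of the median member, against 21.2% over all regions. The following 3 pairs show copies within a cluster. They were chosen after the alignments were seen: the pair with the highest identity over its whole alignment, the promoters of a gene and its pseudogene, and the pair that contains the Cyp3a41a region with the smallest p. Each is the longest gap-free stretch of the alignment, up to 300 bases, written 5′ to 3′ from GRCm38.p6 (mm10 coordinates) in lower case, with capitals where the members of the pair differ.
The Cyp2c pair lies at chr19:39811533-39811817 and chr19:39885463-39885747, plus strand, and differs at 9 of 285 bases.
Cyp2c40: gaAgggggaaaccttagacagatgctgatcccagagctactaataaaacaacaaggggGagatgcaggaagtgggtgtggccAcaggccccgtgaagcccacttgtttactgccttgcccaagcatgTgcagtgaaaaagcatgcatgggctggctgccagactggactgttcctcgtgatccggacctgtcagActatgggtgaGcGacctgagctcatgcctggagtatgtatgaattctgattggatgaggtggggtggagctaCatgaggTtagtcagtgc
Cyp2c69: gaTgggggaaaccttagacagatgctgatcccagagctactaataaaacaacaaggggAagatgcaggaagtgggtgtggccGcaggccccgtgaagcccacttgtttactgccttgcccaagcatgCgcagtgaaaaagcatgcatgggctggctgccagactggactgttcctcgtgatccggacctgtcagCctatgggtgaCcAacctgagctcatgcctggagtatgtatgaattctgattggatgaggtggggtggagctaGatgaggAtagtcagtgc
The Cyp3a pair lies at chr5:145654467-145654650 and chr5:145812428-145812611, plus strand, and differs at 3 of 184 bases.
Cyp3a41a: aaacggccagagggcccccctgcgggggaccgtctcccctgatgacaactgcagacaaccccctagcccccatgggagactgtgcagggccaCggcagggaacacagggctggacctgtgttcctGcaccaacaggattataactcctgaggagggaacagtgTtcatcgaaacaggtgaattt
Cyp3a44: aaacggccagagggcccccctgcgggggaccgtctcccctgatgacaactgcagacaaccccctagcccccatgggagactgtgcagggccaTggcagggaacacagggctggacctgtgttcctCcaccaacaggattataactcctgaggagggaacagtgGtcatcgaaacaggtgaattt
The Cyp21a promoter pair lies at chr17:34722899-34723198 and chr17:34805046-34805345, plus strand, and differs at 19 of 300 bases.
Cyp21a2-ps: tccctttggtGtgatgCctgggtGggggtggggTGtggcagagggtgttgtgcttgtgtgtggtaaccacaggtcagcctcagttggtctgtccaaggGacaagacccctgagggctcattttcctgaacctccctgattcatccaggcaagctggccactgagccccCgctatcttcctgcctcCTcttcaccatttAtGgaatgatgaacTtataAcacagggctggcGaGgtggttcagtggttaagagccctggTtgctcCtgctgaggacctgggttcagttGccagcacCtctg
Cyp21a1: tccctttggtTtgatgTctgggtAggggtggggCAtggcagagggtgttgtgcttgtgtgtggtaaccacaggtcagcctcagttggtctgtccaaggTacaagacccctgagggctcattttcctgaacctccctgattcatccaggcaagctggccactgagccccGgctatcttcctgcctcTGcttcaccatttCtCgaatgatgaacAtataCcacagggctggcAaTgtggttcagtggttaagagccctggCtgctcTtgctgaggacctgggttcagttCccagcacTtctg

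Among the clusters, words found once were least common at Cyp2a/Cyp2b/Cyp2f, with a median of 44.3%, and at Ugt3a, with 47.6%. The Cyp2c and Cyp3a clusters stood at 56.0% and 58.0%, and the Serpinb cluster of chromosome 1 at 98.7%. Fewer than 50% of the words were unique in 91 members (31.6%), compared with 13.5% of all regions.

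**Figure D1:**
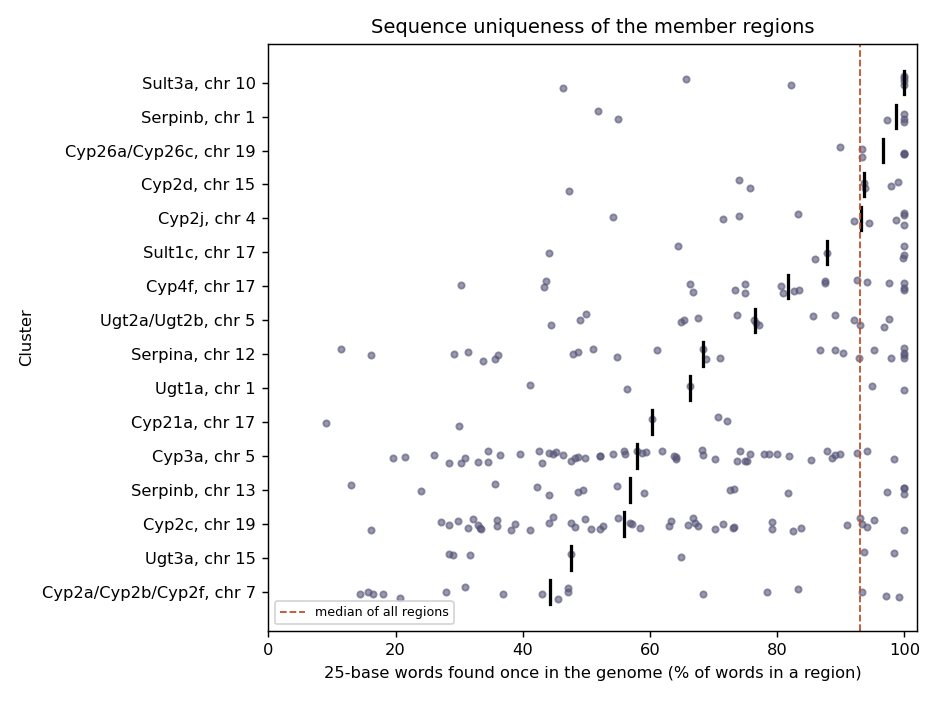
Share of 25-base words found once in the genome (x axis, percent of the words of a region) for each member region (points), by cluster (y axis), with the cluster median as a black bar and the median of all regions as a dashed line. Medians run from 44.3% at Cyp2a/Cyp2b/Cyp2f to 100% at Sult3a.

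The members lay mostly between genes. The deposited annotation placed 168 of them (58.3%) in distal intergenic sequence, 55 (19.1%) in introns and 43 (14.9%) in promoters, which reach 3 kb from a transcription start site (TSS). The shares of all autosomal regions were 54.2%, 21.4% and 20.6%. The median distance to the TSS of the assigned gene in GENCODE M21 was 15.965 kb. Only 80 members overlapped the body of their own gene, 34 lay in another gene alone and 174 lay in no gene. By mean signal in M-EPC and OVX-EPC the median member stood at percentile 58.96 of all regions, and 29 members (10.069%) were above the 90th. Signal here means reads divided by a size factor of the library, so values can be compared only within 1 pair of groups.

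Runs of at least 5 regions of 1 family, with gaps of at most 500 kb, formed 16 clusters that held 254 members. The Cyp3a cluster at chr5:145323720-146073221 held the most, 53 regions assigned to 8 genes in 749.5 kb, and every region in that span was a member. Its density was 70.71 regions per Mb, against 21.494 over the genome. Of its regions 49 were distal intergenic and 0 were in promoters. The Cyp2c cluster at chr19:39111715-40197922 held 46 regions of 13 genes, the Serpina cluster at chr12:103617317-104311464 held 25 of 14 genes, and the Cyp4f cluster at chr17:32447448-32947716 held 20 of 5 genes.

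All members could be compared between OVX-EPC, from ovariectomized females, and M-EPC. At the Cyp3a cluster, whose enzymes oxidize many drugs and steroids, summed signal was 574 and 538 for M-EPC and 673 and 780 for OVX-EPC. The groups did not overlap, and the log2 ratio of their means was 0.39, larger than the spread of 0.12, the pooled SD of log2 sums between replicates. At the Serpina cluster the sums were 344 and 287 for M-EPC and 224 and 242 for OVX-EPC, a log2 ratio of -0.44 (spread 0.14) in the other direction, which was -0.28 with TMM factors. With 2 libraries against 2, the two-sided exact permutation test gave p = 0.3333 for each of these, the smallest p it allows. Over all members the ratio was 0.071 (spread 0.066), and its size and sign depended on the setting: it was 0.23 with TMM factors, -0.0088 over the regions tested and -0.033 over regions with at least 80% unique words. In bulk libraries the share of cells that carry the mark and the amount of mark in a cell cannot be told apart.

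No single member passed the test across all regions. A value of at least 10 in at least 2 libraries was found in 103 of the 288 members, and these were tested with limma on log2(value + 1), with Benjamini-Hochberg adjustment over all 16931 regions tested. Of them 0 had an adjusted p under 0.05, as did 0.449% of all regions tested. The count was also 0 in edgeR, which used TMM factors, and 0 in DESeq2, which used the deposited scaling. At an unadjusted p under 0.05, limma gave 13 members higher in OVX-EPC (12.6%, background 5.07%) and 8 lower (7.77%, background 11.1%), while edgeR gave 22 and 3 and DESeq2 2 and 1. The groups did not overlap in 31 members that were higher (30.1%, background 16.9%) and 21 that were lower (20.4%, background 31.0%). Without the Cyp3a cluster the shares were 6.06% and 12.1% by unadjusted p, and 24.2% and 30.3% without overlap. Members under 10 in both M-EPC libraries, such as a Ugt2b5 region (4.30 and 4.52), were tested only through OVX-EPC and had to be positive. Members under 10 in both OVX-EPC libraries, such as a Cyp4f39 region (9.11 and 7.57), had to be negative. Background regions passed the same filter. These shares describe the regions tested and are no evidence of a shift of the members. The limit also applies to such counts below. The median log2 change of tested members was -0.039, compared with -0.17 over all regions tested. TMM scaling moved these medians to 0.19 and -0.0058, and the split of members from 50 positive and 53 negative changes to 65 and 41. A median member held 6 to 9 reads per library.

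**Figure D2:**
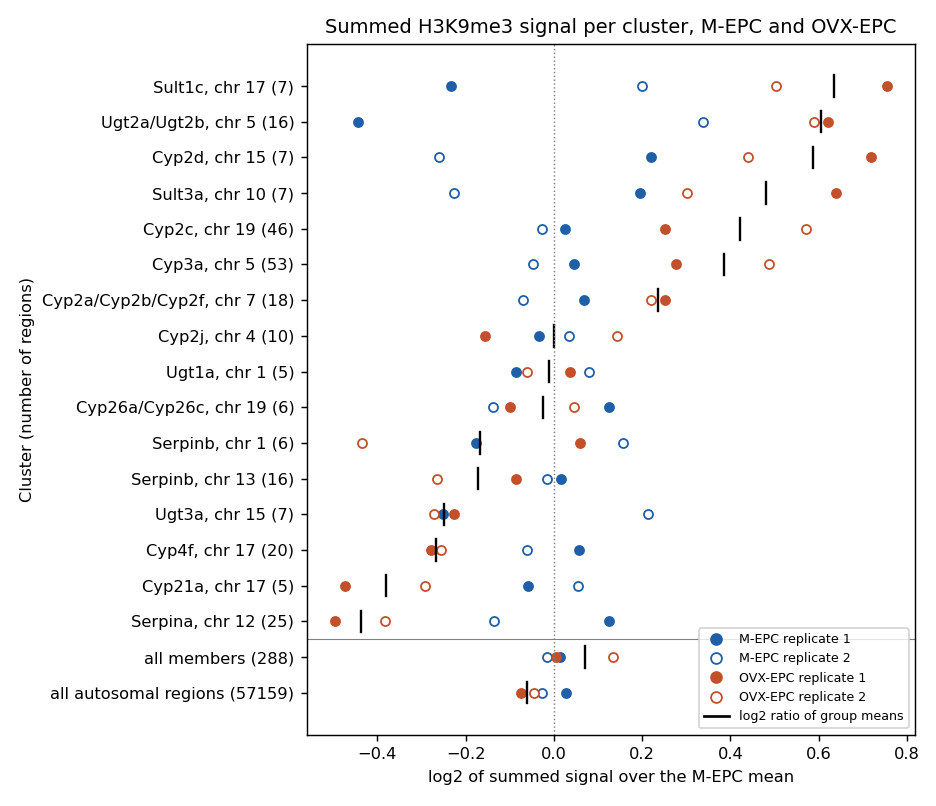
Summed H3K9me3 signal of each of the 16 clusters in each M-EPC and OVX-EPC library (x axis, log2 of the sum over the M-EPC mean), by cluster (y axis, number of regions in brackets), with a black bar at the log2 ratio of the group means. Both OVX-EPC libraries lie right of both M-EPC libraries at Cyp3a, Cyp2a/Cyp2b/Cyp2f, Cyp2c, Cyp2d, Ugt2a/Ugt2b, Sult1c and Sult3a, and left of them at Serpina, Serpinb of chromosome 13, Cyp21a and Cyp4f.

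Within the Cyp3a cluster 37 regions were tested. Of these 28 had a positive log2 change (75.7%, against 46.5% of all autosomal distal intergenic regions tested). All 9 with an unadjusted p under 0.05 in limma were positive (24.3%, background 5.07%), and 0% were negative at this p (background 11.1%). Several of the 9 had M-EPC values under 10 in both libraries, as at Cyp3a44 (9.67 and 9.94) and at Cyp3a11 (5.37 and 8.13). Those passed the filter only through OVX-EPC and had to be positive, so these shares are no evidence of a change. The cluster sum uses all 53 regions without this filter. With TMM factors 32 of 37 were positive, and the ratio of the cluster sum was 0.54. The ratio ranged from 0.28 to 0.49 with each library left out, and was 0.52 over the regions with at least 80% unique words. Summed by gene, all 8 had a positive ratio. It was 0.69 (spread 0.13) at Cyp3a59, 0.51 (spread 0.21) at Cyp3a25, 0.43 (spread 0.12) at Cyp3a41a, 0.43 (spread 0.28) at Cyp3a44 and 0.37 (spread 0.10) at Cyp3a11, which encodes a main drug-oxidizing P450 of mouse liver. The regions of Cyp3a11 went both ways: with TMM factors 2 of 4 tested were positive and 2 negative. At chr5:145918467-145918866 signal was 11.8 and 10.8 for M-EPC and 6.07 and 6.62 for OVX-EPC, lower without overlap. Its log2 change of -0.75 was not called (limma adjusted p = 0.452). At Cyp3a16, Cyp3a41b and Cyp3a57 the groups overlapped, with ratios of 0.16 (spread 0.26), 0.27 (spread 0.29) and 0.19 (spread 0.51). Other regions within 1 Mb of the cluster had a ratio of 0.090 (spread 0.11), those of chromosome 5 outside the members -0.15 (0.0050 with TMM factors), and all autosomal distal intergenic regions 0.070.

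The Cyp3a region with the smallest p lay at chr5:145654467-145654866, 65.3 kb from the TSS of Cyp3a41a (ENSMUSG00000075551), and contains the first sequence of the Cyp3a pair above. It held 14 and 17 reads for M-EPC and 25 and 41 for OVX-EPC. Both OVX-EPC libraries were above both M-EPC libraries, yet the log2 change of 1.00 with an SE of 0.32 was not called (limma adjusted p = 0.161). Its near copy at Cyp3a44 held 3 and 9 reads for M-EPC and 7 and 13 for OVX-EPC, so the groups overlapped there. At chr5:146054674-146055073, 24.2 kb from the TSS of Cyp3a59, reads were 10 and 6 for M-EPC and 19 and 21 for OVX-EPC. The groups did not overlap, and the log2 change was 1.24 with an SE of 0.40 (limma adjusted p = 0.162). The strongest Cyp3a region, near Cyp3a41a at chr5:145652908-145653307, had signal of 24.7 and 21.7 for M-EPC and 29.4 and 23.6 for OVX-EPC, which overlap.

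**Figure D3:**
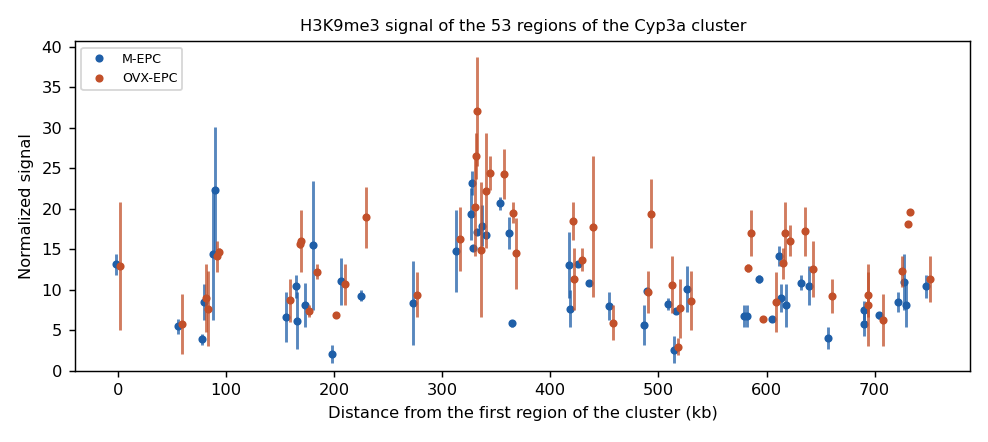
Normalized H3K9me3 signal (y axis, reads divided by a size factor) of the 53 regions of the Cyp3a cluster by distance from the first region (x axis, kb; the groups are drawn slightly apart), in M-EPC and OVX-EPC. Points are means of 2 libraries and bars join the 2 values, and many bars of the groups overlap within single regions.

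At the Cyp2c cluster, whose enzymes oxidize drugs and arachidonic acid, the sums were 227 and 219 for M-EPC and 265 and 331 for OVX-EPC, a log2 ratio of 0.42 (spread 0.16). Only 2 of its 46 regions were strong enough to be tested, so this rests on many weak regions, and the ratio was 0.25 without OVX-EPC replicate 2. Among its genes with most regions, the pseudogene Cyp2c53-ps had a ratio of 0.68 (spread 0.26) with groups that did not overlap, while Cyp2c38 had 0.36 (spread 0.26) and Cyp2c37 0.40 (spread 0.41) with overlap. The Cyp2a/Cyp2b/Cyp2f cluster had sums of 119 and 108 for M-EPC and 136 and 132 for OVX-EPC, a ratio of 0.24 (spread 0.071), and its 5 tested regions were all positive, 0 of them at an unadjusted p under 0.05. Over all autosomal regions tested, 46.5% were positive in distal intergenic regions and 37.2% in introns. The 5 changes ran from 0.075 to 1.04, and the largest, at Cyp2a4, had M-EPC values of 8.60 and 2.71. That region thus passed the filter only through OVX-EPC. For the other Cyp2 clusters the sums gave ratios of 0.59 (spread 0.28) at Cyp2d, on few reads, and 0.00066 (spread 0.15) at Cyp2j. Regions within 1 Mb of Cyp2c and of Cyp2a/Cyp2b/Cyp2f had negative ratios of -0.25 and -0.26. Promoters made up 25.8% and 61.8% of these neighbours, but 8.7% and 0% of the clusters. Over all autosomal regions tested the median change was -0.28 in promoters and -0.044 in distal intergenic regions. Clusters and neighbours are therefore not alike in class, and whether this bears on their ratios was not tested.

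Cyp4f and Cyp21a had smaller sums in OVX-EPC. The Cyp4f cluster, whose enzymes hydroxylate fatty acids and leukotrienes, had 236 and 218 for M-EPC and 187 and 190 for OVX-EPC, a log2 ratio of -0.27 (spread 0.060) that was -0.11 with TMM factors. Of the 11 Cyp4 regions tested 10 were negative, 3 of them at an unadjusted p under 0.05 in limma (background 11.1%). With TMM factors 9 were negative and 1 had such a p. Over all autosomal regions tested the median change was negative too, -0.17, and it was -0.0058 with TMM factors. Cyp4f18, which lies apart from the cluster, had -0.79 (spread 0.27) and Cyp4f37 -0.33 (spread 0.17), whereas Cyp4f15 had 0.35 (spread 0.45), within its spread. The strongest Cyp4 region, in the Cyp4f37 promoter at chr17:32619786-32620185, had signal of 29.0 and 19.0 for M-EPC and 21.3 and 25.5 for OVX-EPC, which overlap. Cyp21a1 encodes the adrenal steroid hydroxylase, and with its pseudogene it had sums of 127 and 137 for M-EPC and 95.2 and 108 for OVX-EPC, a ratio of -0.38 (spread 0.11). Neighbouring regions within 1 Mb were lower too, with ratios of -0.40 around Cyp4f and -0.45 around Cyp21a. Promoters made up 46.7% and 60.8% of these neighbours, and 25% and 60% of the clusters.

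Cyp26 enzymes break down retinoic acid, and regions assigned to Cyp26c1 (ENSMUSG00000062432) had the strongest signal under the Cyp2 letters. In an intron of Exoc6 at chr19:37626917-37627316, 58.3 kb from the TSS of Cyp26c1, signal was 48.4 and 38.0 for M-EPC and 36.4 and 46.3 for OVX-EPC, which overlap. The Cyp26c1 promoter region at chr19:37687044-37687443 held 45 and 45 reads for M-EPC and 28 and 24 for OVX-EPC. Its log2 change was -0.78 with an SE of 0.28 and was not called (limma adjusted p = 0.197). The cluster sum had a ratio of -0.025 (spread 0.15), which was 0.14 with TMM factors. The Cyp39a1 promoter region, the strongest promoter under the Cyp3 letters, held only 5 and 5 reads for M-EPC and 6 and 2 for OVX-EPC.

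For the conjugating enzymes the sums were larger in OVX-EPC at Ugt2 and Sult. The Ugt2a/Ugt2b cluster, whose enzymes conjugate steroids and other lipophilic compounds, had 73.1 and 126 for M-EPC and 153 and 150 for OVX-EPC, a log2 ratio of 0.61 (spread 0.39). The M-EPC libraries differed widely, and the ratio was 0.27 without M-EPC replicate 1 and 1.05 without M-EPC replicate 2. The strongest Ugt2 region, near Ugt2b37 at chr5:87231709-87232108, held 6 and 11 reads for M-EPC and 14 and 18 for OVX-EPC, a log2 change of 0.87 that was not called (limma adjusted p = 0.295). Summed by gene, Ugt2b37 had a ratio of 0.91 (spread 0.37), Ugt2b35 0.73 (spread 0.51) and Ugt2a3 0.35 (spread 0.45). The Ugt2b35 promoter region held 0 and 3 reads for M-EPC and 2 and 9 for OVX-EPC, which overlap.

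The Sult1c cluster had sums of 30.1 and 40.6 for M-EPC and 59.7 and 50.1 for OVX-EPC, a log2 ratio of 0.64 (spread 0.25), and Sult3a had 0.48 (spread 0.27). By gene the ratio was 0.52 (spread 0.26) at Sult1c1, 0.44 (spread 0.26) at Sult3a2 and 0.95 (spread 1.39) at Sult1c2, where the groups overlapped. Regions within 1 Mb of Sult1c and of Sult3a had ratios of 0.27 and 0.24. The strongest Sult region, near Sult1c1 at chr17:53941580-53941979, held 9 and 12 reads for M-EPC and 14 and 13 for OVX-EPC. The strongest Sult promoter region, at Sult2b1, the gene of a cholesterol sulfotransferase, had 8 and 14 against 6 and 11, with overlap.

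At the Ugt1a locus alternative first exons share the later exons of 1 gene, and Ugt1a1 encodes the enzyme that conjugates bilirubin. Its promoter region at chr1:88214109-88214508 held 30 and 31 reads for M-EPC, 37 and 34 for F-EPC and 31 and 26 for OVX-EPC. The cluster had a ratio of -0.010 (spread 0.10) in OVX-EPC and -0.19 (spread 0.16) in F-EPC against M-EPC, and Ugt1a5, with 2 of its regions, had -0.10 (spread 0.16) and -0.24 (spread 0.23). With TMM factors the cluster ratios were 0.14 and 0.018, so their sign depended on the scaling. The Ugt3a cluster had -0.25 (spread 0.23) in OVX-EPC and 0.0066 (spread 0.24) in F-EPC, with 6 of its 7 regions at Ugt3a1 and the remaining 1 at Ugt3a2. Reads at its strongest region were 7 and 9 for M-EPC, 11 and 14 for F-EPC and 9 and 6 for OVX-EPC. The Ugt3a1 promoter region had 1 and 3 for M-EPC, 6 and 3 for F-EPC and 3 and 4 for OVX-EPC.

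Promoter and intergenic members had different medians. Of 17 member promoter regions tested, 16 had a negative log2 change in OVX-EPC, with a median of -0.58, while 74.5% of all 5693 autosomal promoter regions tested did, with a median of -0.28. Those with an unadjusted p under 0.05 in limma were 4 (23.5%, background over all regions 11.1%), at Cyp26c1, Cyp4f37 and, with 2 regions, Cyp21a2-ps. With TMM factors 13 of 16 were negative, with a median of -0.42, and 1 had such a p. The background of 11.1% spans all classes, so the share of 23.5% was not compared with that of promoters alone. Of 64 distal intergenic members tested, 40 had a positive change (62.5%), with a median of 0.19, compared with 46.5% and -0.044 over all such regions. In the Cyp3a cluster 28 of 36 distal intergenic regions were positive, and outside it 12 of 28 (42.9%, with a median of -0.092), close to the share of all such regions. No region of the Cyp3a cluster lay in a promoter.

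**Figure D4:**
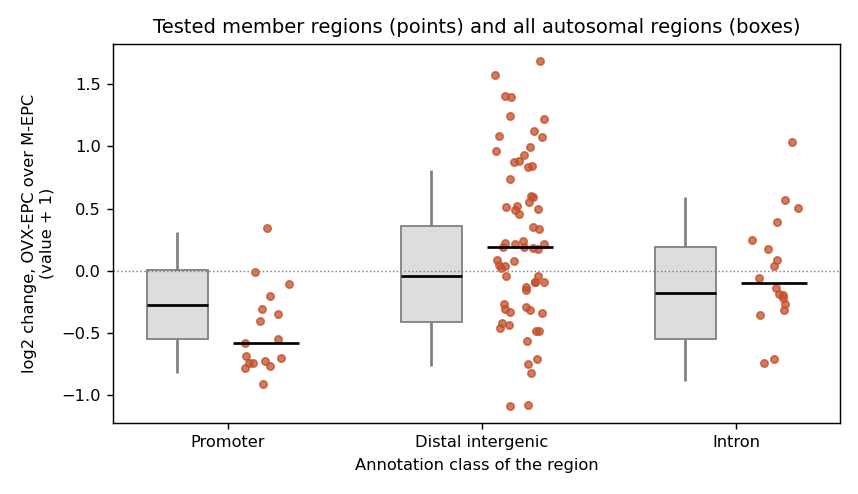
Log2 change of OVX-EPC over M-EPC (y axis, on log2(value + 1)) by annotation class (x axis) for tested member regions (points, black bar at the median) and for all autosomal regions tested (boxes from the 25th to the 75th percentile, whiskers to the 10th and 90th, black bar at the median). Member medians are -0.58 in promoters, 0.19 in distal intergenic regions and -0.10 in introns.

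The comparison of F-EPC with M-EPC set intact females against males. At the Serpina cluster the sums were 400 and 322 for M-EPC and 245 and 259 for F-EPC, a log2 ratio of -0.52 (spread 0.16) with groups that did not overlap, and -0.30 with TMM factors. The 11 regions of Serpina3 genes, relatives of antichymotrypsin that are expanded in the mouse, had -0.61 (spread 0.20). The 10 regions of Serpina1 genes, which encode antitrypsins, had -0.16 (spread 0.045), which turned to 0.051 with TMM factors. In OVX-EPC against M-EPC these ratios were -0.53 (spread 0.17) for Serpina3 and 0.040 (spread 0.26) for Serpina1, and both comparisons share the M-EPC libraries. Over the regions with at least 80% unique words the cluster ratio was -0.47 in F-EPC and -0.73 in OVX-EPC. Other regions within 1 Mb had ratios of -0.068 (spread 0.13) and -0.12 (spread 0.15), and with TMM factors 0.14 and 0.036.

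Of the 79 members measured in F-EPC, 26 were tested and 1 had an adjusted p under 0.05 in limma, as did 1.79% of all 8139 regions tested. The count was 1 in edgeR and 0 in DESeq2. At an unadjusted p under 0.05 there were 2 higher in F-EPC (7.69%, background 6.23%) and 6 lower (23.1%, background 16.5%), while edgeR gave 2 and 4 and DESeq2 0 and 2. The groups did not overlap in 3 that were higher (11.5%, background 17.8%) and 9 that were lower (34.6%, background 36.0%). The median log2 change of -0.16 lay near that of all regions, -0.19. With TMM factors these medians were 0.039 and 0.023, and 16 of 26 members were positive where 8 were with the deposited scaling.

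The called region lies in distal intergenic sequence at chr12:104281252-104281651, 18.1 kb from the TSS of Serpina3i (ENSMUSG00000079014). It held 54 and 57 reads for M-EPC, 33 and 27 for F-EPC and 21 and 32 for OVX-EPC, so every female library was below both male libraries. On the scale of F-EPC and M-EPC, signal was 62.6 ± 6.89 for M-EPC and 25.6 ± 1.02 for F-EPC (SD, n = 2). The log2 change was -1.25 with an SE of 0.26 (limma adjusted p = 0.0157). Against M-EPC, OVX-EPC had a log2 change of -1.08 with an SE of 0.27 that was not called (limma adjusted p = 0.0765). It was called without a filter on low values (limma adjusted p = 0.0369) and among regions that reached 30 in 2 libraries (0.00699). Against F-EPC, OVX-EPC had 0.14 (limma adjusted p = 0.976). The F-EPC call was also made by edgeR and was lost in DESeq2 (adjusted p = 0.410), with TMM factors (limma adjusted p = 0.0716), without M-EPC replicate 1 (0.187), without F-EPC replicate 1 (0.0980) and without F-EPC replicate 2 (0.1002). The edgeR fit used TMM factors too, so at that scaling the call was made by edgeR and not by limma. Of the 25-base words of this region 16.2% occur once in the genome.

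Other Serpina3 regions were measured nearby. At chr12:104282941-104283340, also assigned to Serpina3i and with 89.1% unique words, reads were 13 and 20 for M-EPC, 3 and 12 for F-EPC and 11 and 15 for OVX-EPC. F-EPC lay below M-EPC without overlap, with a log2 change of -1.58 and an SE of 0.49 (limma adjusted p = 0.0869), which was -0.67 without F-EPC replicate 1. Without F-EPC replicate 2 it was -2.50 and called (limma adjusted p = 0.0162). With the replicate number as a block its adjusted p in limma was 0.0383. At chr12:104311065-104311464, 3.1 kb from the TSS of Serpina3j, reads were 44 and 39 for M-EPC, 27 and 30 for F-EPC and 30 and 26 for OVX-EPC. Here too F-EPC lay below M-EPC, with a log2 change of -0.91 and an SE of 0.28 (limma adjusted p = 0.0872), called only among regions that reached 30 in 2 libraries (limma adjusted p = 0.0254). The strongest Serpina promoter region, 2.5 kb from the TSS of Serpina3g at chr12:104233338-104233737, held 54 and 45 reads for M-EPC, 50 and 63 for F-EPC and 43 and 43 for OVX-EPC, and the signal of its groups overlapped in every comparison. Serpina1b and Serpina1d, each with 3 regions, had ratios of -0.45 (spread 0.76) and 0.12 (spread 0.35) in F-EPC against M-EPC, within their spread.

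**Figure D5:**
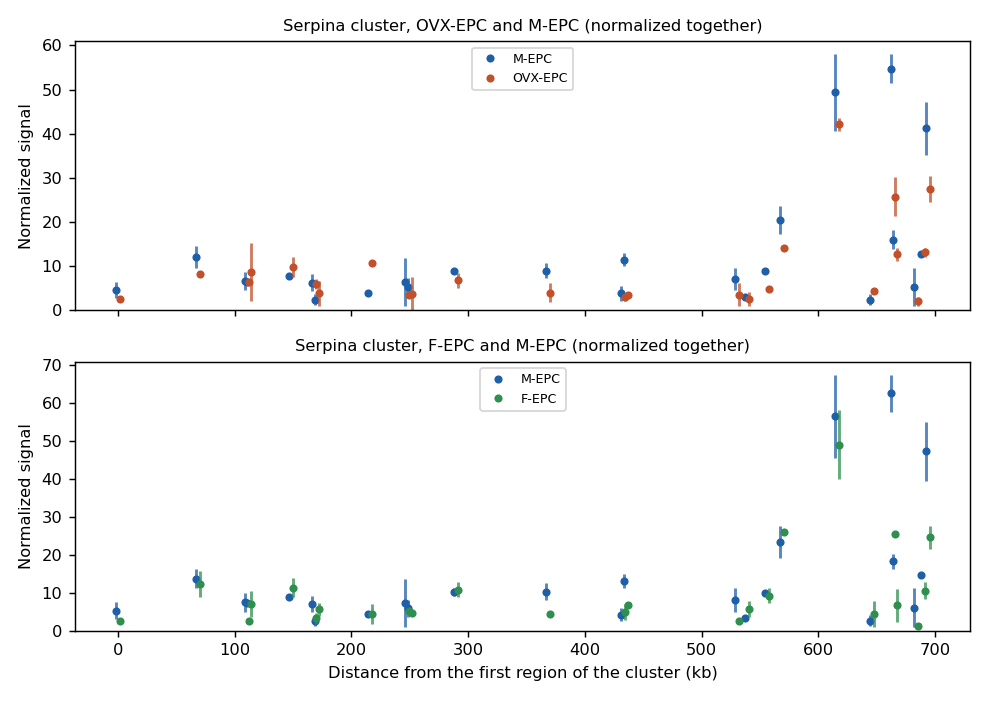
Normalized H3K9me3 signal (y axis, reads divided by a size factor) of the 25 regions of the Serpina cluster by distance from the first region (x axis, kb), for OVX-EPC and M-EPC (upper panel) and F-EPC and M-EPC (lower panel), each pair on its own scale. Points are means of 2 libraries and bars join the 2 values, and the Serpina3i region with a mean of 62.6 in M-EPC stands at 25.6 in F-EPC.

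The Serpinb clusters had small ratios. The cluster of chromosome 13, with relatives of Serpinb1, Serpinb6 and the granzyme inhibitor Serpinb9, had -0.10 (spread 0.053) in F-EPC and -0.17 (spread 0.091) in OVX-EPC against M-EPC, and the first turned to 0.12 with TMM factors. Its strongest region, near Serpinb9g at chr13:33444711-33445110, held 14 and 15 reads for M-EPC, 15 and 20 for F-EPC and 13 and 10 for OVX-EPC. The Serpinb9g promoter region had 6 and 10 for M-EPC, 16 and 7 for F-EPC and 7 and 16 for OVX-EPC, so replicates differed as much as groups. Serpinb13 and Serpinb1b had ratios of 0.65 (spread 1.31) and -0.71 (spread 0.83) in OVX-EPC against M-EPC, within their spread. The cluster of chromosome 1 had -0.15 (spread 0.26) in F-EPC, which turned to 0.060 with TMM factors, and -0.17 (spread 0.30) in OVX-EPC.

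At Sult3a the sum was larger in F-EPC, 45.0 and 32.4 for M-EPC and 48.7 and 58.1 for F-EPC, a log2 ratio of 0.46 (spread 0.27). Regions within 1 Mb had 0.27 (spread 0.084). Of 3 Sult3a2 regions tested, 2 had an unadjusted p under 0.05 in limma with a positive change (background 6.23%), neither called. In both, the M-EPC values were under 10 (7.50 and 5.07, and 1.25 and 6.08), so they passed the filter only through F-EPC. They could be tested only with a positive change, and their count is no evidence of a difference. Reads at these were 6 and 5 for M-EPC and 14 and 20 for F-EPC, and 1 and 6 against 13 and 13. The log2 change of the latter was 1.61, and 0.78 to 2.43 in fits that left out 1 library. The Cyp2d cluster had 0.023 (spread 0.30).

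The comparison of OVX-EPC with F-EPC addressed ovariectomy itself. Of 27 members tested, 0 had an adjusted p under 0.05 in limma, as did 0.0127% of 7897 regions tested, and edgeR and DESeq2 also called 0. At an unadjusted p under 0.05 there was 1 higher (3.70%, background 3.49%) and 1 lower (3.70%, background 2.72%), while edgeR had 3 in all and DESeq2 0. The groups did not overlap in 5 that were higher (18.5%, background 19.6%) and 3 that were lower (11.1%, background 15.8%). All these shares lay near the background. The summed signal of the members had a log2 ratio of 0.048 (spread 0.048), the Serpina cluster 0.041 (spread 0.076) (-0.0016 with TMM factors), Cyp2d 0.52 (spread 0.19) and Ugt3a -0.29 (spread 0.12). The Serpina ratio was -0.31 over the regions with at least 80% unique words. The smallest p belonged to the second Serpina3i region above, with a log2 change of 1.23 (limma adjusted p = 0.769) that was 0.32 without F-EPC replicate 1 and 2.15 without F-EPC replicate 2. At chr12:104186138-104186537, downstream of the pseudogene Serpina3e-ps, signal was 26.8 and 26.1 for F-EPC and 15.9 and 16.1 for OVX-EPC, a log2 change of -0.69 (limma adjusted p = 0.777). In an intron of the Ugt1a locus, assigned to Ugt1a6b, at chr1:88113286-88113685 reads were 7 and 7 for F-EPC and 13 and 10 for OVX-EPC, a log2 change of 0.94 (limma adjusted p = 0.808).

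A list of 90 genes of these pathways was examined beside the members, 86 of them outside the set, among them the nuclear receptors that regulate detoxification genes. In OVX-EPC against M-EPC 27 of their regions were tested, 1 had an adjusted p under 0.05 in limma (background 0.449%), and at an unadjusted p under 0.05 there were 0 with a positive (background 5.07%) and 6 with a negative change (background 11.1%). The called region lay in the promoter of Nr1i3, the constitutive androstane receptor, which activates Cyp2b genes in liver, at chr1:171211648-171212047. It held 23 and 25 reads for M-EPC and 7 and 8 for OVX-EPC, a log2 change of -1.56 with an SE of 0.37 (limma adjusted p = 0.0474). In F-EPC, with 11 and 13 reads, the same region was called against the same M-EPC libraries, with a log2 change of -1.31 (limma adjusted p = 0.0491), 1 of 6 regions tested (background 1.79%). Both calls were lost with TMM factors (limma adjusted p = 0.116 in OVX-EPC and 0.111 in F-EPC), in edgeR (adjusted p = 0.0589 and 0.0728) and in DESeq2 (adjusted p = 0.9999 and 0.866). They were also lost without OVX-EPC replicate 1 or 2 (limma adjusted p = 0.290 and 0.187) and, in F-EPC, without any 1 of the 4 libraries (limma adjusted p from 0.0749 to 0.251). Without an M-EPC replicate the OVX-EPC comparison did not test this region. In OVX-EPC against F-EPC 0 of 3 were called in limma, and 1 had an unadjusted p under 0.05 with a negative change (background 2.72%).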

How the data were processed

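CUT&Tag libraries of H3K9me3 from 3 groups of EPCs, 2 each, were analysed. Per the methods and labels, the authors aligned 25-base paired reads to mm10, removed duplicates with Picard and reads of mapping quality under 10, and called peaks with MACS2; the methods name Bowtie2 and the processing notes BWA. The deposited signal is a whole number of reads divided by a size factor per library, set by the authors separately in each of 3 tables; 100% of values gave whole reads (tolerance 0.001). The deposited columns of fold changes and p-values were not used.

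Main tests were limma 3.58.1 (R 4.3.3) with its trend option, run without covariates on log2(value + 1) of every region that reached 10 in 2 or more libraries. Deposited values are not raw counts, so edgeR 4.0.16 and DESeq2 1.42.0 on the recovered reads were alternatives, as were other pseudocounts, filters, scalings, a replicate block and leaving out libraries. The edgeR fit used TMM factors and DESeq2 the deposited size factors, so edgeR differs from the main test in scaling as well as method. Fold changes on this scale understate those of weak regions. F-EPC was compared only where both its libraries held reads. Sums of signal were compared by the log2 ratio of group means, the pooled SD of log2 sums and a two-sided exact permutation test. Copies were found with blastn 2.17.0+. The limma test was checked on simulated data, with changes placed only in regions with more reads than a median member. Of 2-fold changes it recovered 4.48% in OVX-EPC against M-EPC and 11.9% in either comparison with F-EPC. Of 4-fold changes it recovered 86.6% to 92.5%. A region that was not called may therefore still differ by 2-fold. Same-numbered libraries did not deviate together (correlations -0.0179, -0.0522, -0.0311).

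Regions named are the called ones, the 3 smallest p in each comparison, and in each family the strongest region, the strongest promoter region and the genes with most regions; near copies, the other Cyp3a genes, Cyp21a and neighbouring clusters were added after values were seen. Members and lists were chosen with earlier results of these data known. One sequence pair is not reported here.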

Additional observations from a re-analysis of the deposited data

How the results depend on the processing

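In OVX-EPC against M-EPC, 0 members were called and 1 was without a filter on low values and when 30 had to be reached in 2 libraries, each time the Serpina3i region at chr12:104281252-104281651. In F-EPC against M-EPC, 1 was called, 2 without a filter, 2 with at least 30, 2 with the replicate block, and 0 with TMM factors and in DESeq2; leaving out libraries gave 0 to 2, with 0 without M-EPC replicate 1 or F-EPC replicate 1 and 2 without M-EPC replicate 2. In OVX-EPC against F-EPC leaving out libraries gave 0 to 0. The log2 ratio of summed members in OVX-EPC against M-EPC was 0.071, 0.23 with TMM factors, -0.0088 over the regions tested, -0.033 over regions with at least 80% unique words, 0.069 with the replicate block, and 0.0047 to 0.13 with libraries left out, so its sign was not stable. In F-EPC against M-EPC it was -0.27, -0.055 with TMM factors and -0.34 to -0.19 with libraries left out, and in OVX-EPC against F-EPC 0.011 to 0.084. The limit of 80% unique words and the alternatives for Nr1i3 were chosen after seeing the data. The cause of these changes was not tested. Replicate numbers are shared only as names, and among the counts of called members the block changed that of F-EPC against M-EPC. A median member held 6 to 9 reads per library, and signal in copies rests on the bases that short reads can place.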
